A study of Mus musculus with 136 samples.

Results

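The H3K27ac landscape of wild-type (WT) mouse embryonic stem cells (ESCs) is given by 1 deposited peak list, that of clone 410, and all of its 128247 peaks were taken. They were part of 592342 regions in the 8 WT lists read here, and of a series of 136 samples. The list pooled 2 replicate samples, so each peak has 1 position and 1 fold enrichment over local background, no spread between replicates could be computed, and no test between groups was made. Read depth is unknown, since the list holds no counts, and the intervals given are 95% Wilson intervals for counting error only. The study asked how cells whose MCM2 helicase subunit is impaired in passing on old histones (MCM2-2A) keep their histone marks, and the WT clone is the reference for those mutants.

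Clone 410 was of genotype wildtype in the male ESC line E14JU (strain 129/Ola), was cultured with serum and leukaemia inhibitory factor, and received no further treatment. As 1 clone, it carries no information on how much WT clones differ. H3K27ac, H3K4me3, H3K27me3 and H3K9me3 were profiled by native chromatin immunoprecipitation and sequencing (ChIP–seq) on chromatin cut by micrococcal nuclease, with Drosophila chromatin as spike-in and 2 replicates per list. SUZ12, a subunit that the Polycomb complex PRC2 needs for its activity, came from crosslinked and sonicated chromatin of the same clone, with 3 replicates behind its list.

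H3K27ac is acetylation of lysine 27 of histone H3, placed mainly by the acetyltransferases p300 and CBP and read by bromodomain proteins. It is found on the nucleosomes that flank active promoters and enhancers, and wide stretches of it lie around genes that hold a cell type in its state. H3K4me3 marks promoters that are active or poised, H3K27me3 is written by PRC2 on the lysine that acetylation would otherwise occupy, and H3K9me3 marks heterochromatin, much of it over silenced repeats.

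Promoter sequences of 6 genes are shown because the density of CG dinucleotides followed the presence of H3K27ac at starts, described further on, while single strong genes departed from it. Each is the run of 250 bases that ends just before the transcription start, read 5′ to 3′ on the strand of the gene from RefSeq for GRCm38.p6, with CG in capitals. Their positions are Calm3 at chr7:16924033-16924282, minus strand, Rpl19 at chr11:98026460-98026709, plus strand, L1td1 at chr4:98726504-98726753, plus strand, Tdgf1 at chr9:110946159-110946408, minus strand, Nanog at chr6:122707239-122707488, plus strand, and Alb at chr5:90460620-90460869, plus strand. Calm3 (a calmodulin gene) and Rpl19 (a ribosomal protein) had H3K27ac folds of 73.2 and 56.8 near their starts, with 33 and 21 CG. L1td1 (an RNA-binding protein of ESCs), Tdgf1 (a Nodal co-receptor) and Nanog (a homeobox factor of pluripotency) had folds of 43.3, 40.8 and 38.4 with 11, 7 and 3 CG. These genes do not represent the pluripotency regulators as a set. In the longer promoter window used further on, 18 promoters of such regulators had a median of 14 CG (quartiles 10.2 and 20.5). The median in that window was 13 for all promoters and 20 for those with H3K27ac. Alb, the serum albumin gene of liver, had 2 CG and no H3K27ac peak within 2500 bp of its start.
Calm3: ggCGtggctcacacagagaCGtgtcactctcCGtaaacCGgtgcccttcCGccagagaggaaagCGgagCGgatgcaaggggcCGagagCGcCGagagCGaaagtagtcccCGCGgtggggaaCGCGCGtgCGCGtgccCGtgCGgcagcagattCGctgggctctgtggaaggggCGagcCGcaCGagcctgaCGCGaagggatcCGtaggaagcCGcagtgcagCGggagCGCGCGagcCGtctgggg
Rpl19: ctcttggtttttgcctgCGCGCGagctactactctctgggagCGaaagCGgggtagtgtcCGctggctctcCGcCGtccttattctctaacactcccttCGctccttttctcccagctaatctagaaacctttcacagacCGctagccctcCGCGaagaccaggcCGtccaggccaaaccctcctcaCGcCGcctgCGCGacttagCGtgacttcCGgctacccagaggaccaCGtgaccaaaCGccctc
L1td1: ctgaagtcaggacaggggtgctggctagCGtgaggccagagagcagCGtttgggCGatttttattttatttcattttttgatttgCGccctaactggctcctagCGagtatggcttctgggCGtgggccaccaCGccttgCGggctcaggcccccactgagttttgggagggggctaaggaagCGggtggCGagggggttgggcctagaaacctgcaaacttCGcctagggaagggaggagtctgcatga
Tdgf1: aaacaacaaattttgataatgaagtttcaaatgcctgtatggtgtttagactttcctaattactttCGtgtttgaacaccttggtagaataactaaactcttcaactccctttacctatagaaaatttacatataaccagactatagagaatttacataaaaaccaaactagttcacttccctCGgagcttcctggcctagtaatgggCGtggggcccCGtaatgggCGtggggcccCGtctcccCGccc
Nanog: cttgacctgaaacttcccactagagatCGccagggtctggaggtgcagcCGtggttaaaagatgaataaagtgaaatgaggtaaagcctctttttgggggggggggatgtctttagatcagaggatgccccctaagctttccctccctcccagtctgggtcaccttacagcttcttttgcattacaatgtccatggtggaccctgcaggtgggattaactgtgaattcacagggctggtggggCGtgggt
Alb: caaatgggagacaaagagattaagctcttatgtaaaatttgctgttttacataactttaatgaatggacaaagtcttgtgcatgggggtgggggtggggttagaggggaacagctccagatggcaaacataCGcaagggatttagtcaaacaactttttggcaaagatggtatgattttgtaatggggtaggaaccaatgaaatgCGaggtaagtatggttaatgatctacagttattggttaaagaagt

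The miR-290 cluster, the leading microRNA cluster of mouse ESCs, lay against the sixth widest peak of the list, so mature sequences of its members are shown too, from RefSeq for GRCm38.p6, with the seed (bases 2 to 8) in capitals. The seed AAGUGCU was shared by miR-294-3p and miR-295-3p, and differed in its last base from the seeds of miR-291b-3p and miR-290a-3p. All 4 lie on the plus strand, in the order shown at chr7:3218674-3218697, chr7:3219529-3219550, chr7:3220691-3220712 and chr7:3220815-3220837.
miR-290a-3p: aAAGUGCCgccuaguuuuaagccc
miR-291b-3p: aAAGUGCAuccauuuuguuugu
miR-294-3p: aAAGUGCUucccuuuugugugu
miR-295-3p: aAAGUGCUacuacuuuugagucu

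H3K27ac peaks were narrow and numerous, and a small share of wide peaks held much of the acetylated sequence. The peaks did not overlap each other and together covered 3.21% of the span of the chromosomes. The median width was 419 bp, with 266 and 752 bp at the lower and upper quartile, and the range ran from 150 to 25551 bp. Peaks of at least 1000 bp were 16.6% of the list and held 49.0% of its bases, and 843 peaks reached 5000 bp. The median fold was 3.98 (quartiles 3.19 and 5.89), and 3376 peaks (2.63%) had a fold of at least 20. Width and fold rose together across peaks (Spearman's rank correlation 0.576, n = 128247 peaks of 1 list, given as a description). The 100 strongest and the 100 widest peaks shared 6 members, however, and 11 of the 100 strongest were under 300 bp wide. Peaks lay close together: the median gap to the next peak was 1312 bp, and 46.5% of gaps were at most 1000 bp. The list also held 1283 peaks (1.00%) whose q-value was above 0.05.

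Of the 10 strongest peaks, 6 lay at gene ends and 4 away from them. The highest fold, 77.8, belonged to a peak of 994 bp at chr7:25658004-25658997, within 2500 bp of ends of Bckdha (a subunit of the branched-chain ketoacid dehydrogenase) and Exosc5 (a subunit of the RNA exosome). The second, 73.2, lay 295 bp from the end of Calm3 that holds its start. The third, 72.6, was 10.0 kb wide and lay inside Ppp2r5c (a regulatory subunit of protein phosphatase 2A), 20559 bp from its nearer end. Fold 67.4 was found at the neighbouring ends of Atpsckmt and Cct5 (a subunit of the TRiC chaperonin). At Adam23, a membrane protein of the disintegrin family, the fold was 67.0. It was 66.1 at Pigl, an enzyme of GPI anchor synthesis, and 64.9 at Eif3b, a translation initiation factor. The other members of the 10 strongest lay between genes, 10759 bp from Armh1 (fold 67.7), 17496 bp from Tmem131l (66.9) and 12373 bp from Rps6ka1, a kinase of the MAP kinase pathway (65.9). The Armh1 peak, at chr4:117201395-117202567, reached the end of the annotated small nuclear RNA gene Gm23143.

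All 100 of the strongest peaks overlapped H3K4me3, against 50.8% of all peaks, and 16 overlapped H3K9me3, against 10.2%. None overlapped H3K27me3 (5.30% of all peaks) or SUZ12 (1.70%). A count of 0 of 100 allows a share of up to 3%, so for SUZ12 no difference from the whole list was detectable. The 100 strongest peaks were also wider (median 2335 bp, against 419 bp for all peaks) and so had more bases with which to meet another list. Whether their H3K9me3 share differed from that of the whole list was not tested. Of these 100, 68 (against 22.5% of all peaks) lay within 2500 bp of the end of a protein-coding gene, 12 inside a gene and 20 between genes. Some strong peaks were very narrow: the peak inside Mical3 (a monooxygenase that acts on actin), with a fold of 60.3, was 237 bp wide. Across the list, 177 peaks (5.24% of those with a fold of at least 20) were both this strong and under 300 bp wide, against 30.9% of all peaks under that width.

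The 10 widest peaks were at least 17.2 kb long and included those at Tet1, at Cdh1 and beside the miR-290 cluster. The widest of all, 25.6 kb, lay between genes 3483 bp from Mkrn1 (a ubiquitin ligase) with a fold of 44.8, and 43.9% of its length was under H3K9me3. A peak of 25.4 kb lay inside Etl4, 137132 bp from an end, with a fold of 30.8. Tet1, the dioxygenase that oxidises 5-methylcytosine in ESCs, had a peak of 24.8 kb at its end (chr10:62880380-62905193), with a fold of 20.9 and 99% of its length under H3K4me3. A peak of 20.6 kb (fold 37.5) lay within 2500 bp of ends of Slc29a1 (a nucleoside transporter) and Mymx (a muscle fusion protein), and one of 19.8 kb (37.6) lay 6775 bp from Gabrp, a GABA receptor subunit.

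The peak of 19.3 kb beside Nlrp12 (chr7:3198394-3217645, fold 48.3) ended 981 bp before the hairpin of Mir290a, and a further peak of 6.02 kb (chr7:3217764-3223782, fold 29.0) covered the mature sequences shown above. Of 1005 annotated microRNA hairpins, 367 (36.5%, interval 33.6% to 39.5%) had H3K27ac within 2500 bp, beside 57.1% of protein-coding genes near an end. Over the 1228 microRNA genes of the gene annotation the share was 34.1%. Among the 809 of these with no protein-coding end within 2500 bp it was 24.1%. The other members of the 10 widest lay near Smarcad1 (a chromatin remodeller, 19.2 kb), Csnk1a1 (casein kinase 1, 19102 bp), 2410137M14Rik (17.6 kb) and Cdh1 (E-cadherin, 17.2 kb). The Smarcad1 peak had 49.5% of its length under H3K9me3. In the maps of the 6 widest peaks, none met an H3K27me3 region or a SUZ12 peak, and all overlapped 3 to 11 H3K4me3 peaks except that of Tet1, which met 1.

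**Figure D1:**
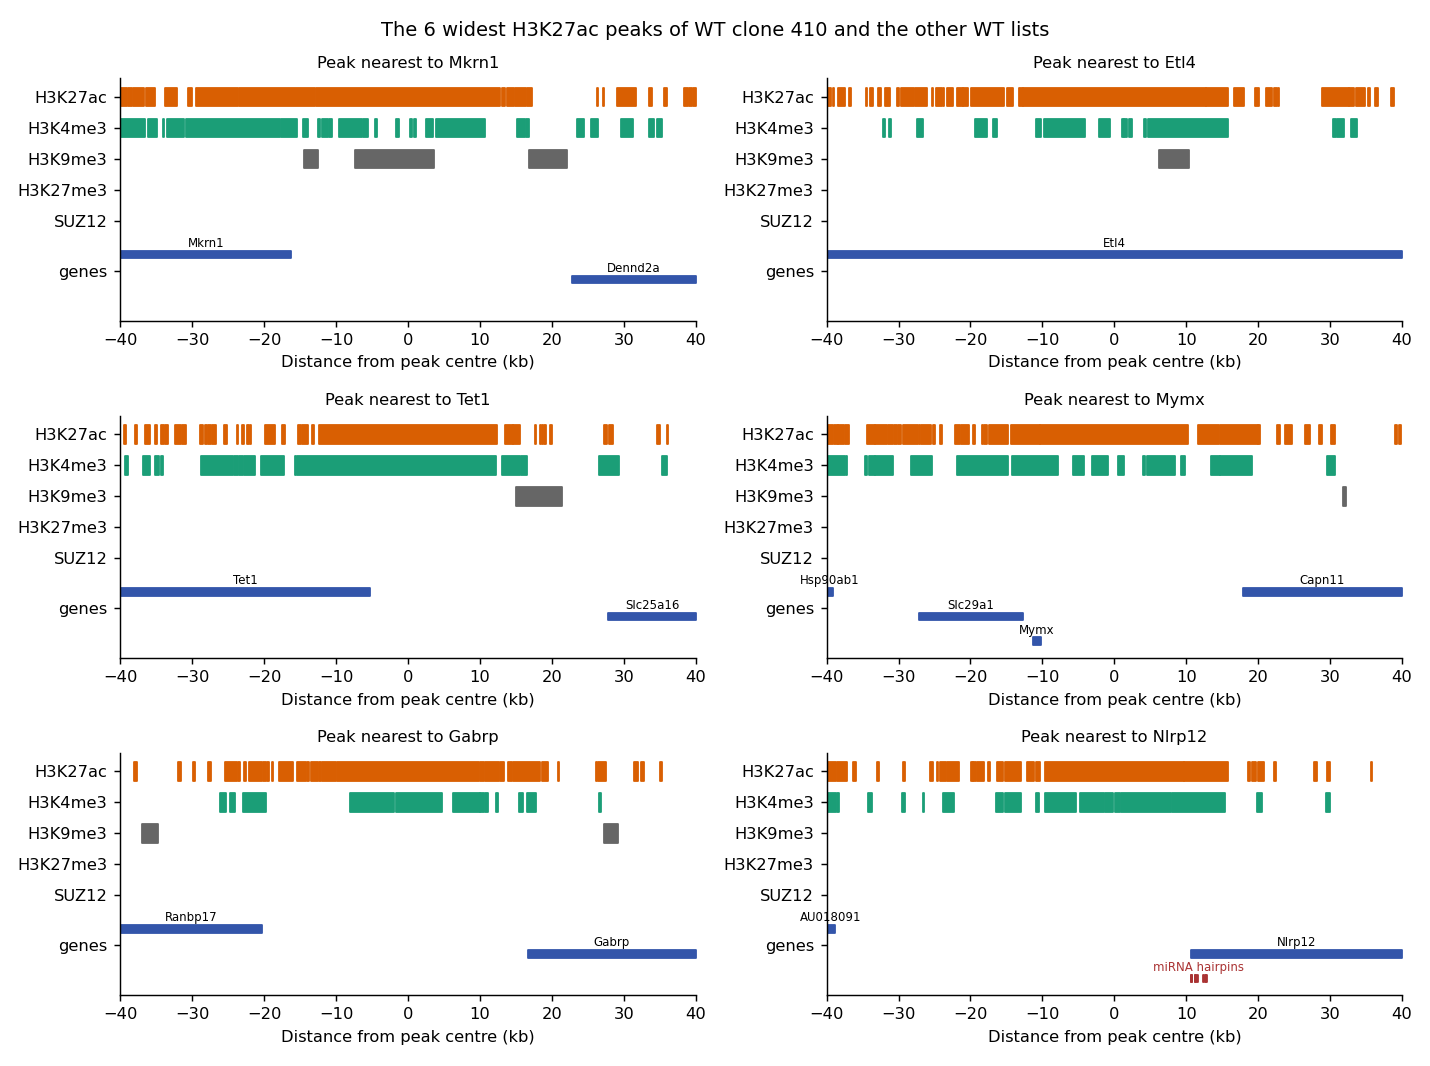
Maps of the 6 widest H3K27ac peaks, each centred on the peak with 40 kb to either side (x axis, distance from the peak centre in kb); rows show peaks of the 5 WT lists, protein-coding genes (blue) and microRNA hairpins (red). H3K4me3 peaks lie under each of the 6, H3K9me3 regions lie inside those near Mkrn1 and in Etl4, and no H3K27me3 region or SUZ12 peak is present in the windows.

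Among the 100 widest peaks, 100 overlapped H3K4me3 and 32 overlapped H3K9me3, beside 50.8% and 10.2% of all peaks. None overlapped H3K27me3 or SUZ12, beside 5.30% and 1.70%, with the same limit of 3% on a count of 0. A wide peak has more bases with which to meet another list. They were spread more evenly over places than the 100 strongest, with 37 at gene ends, 27 inside genes and 36 between genes.

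By place, most H3K27ac peaks were away from gene ends, while the peaks at gene ends were the stronger ones. Of all peaks, 28890 (22.5%, interval 22.3% to 22.8%) lay within 2500 bp of either end of a protein-coding gene, 54843 (42.8%) lay inside genes beyond that distance, and 44514 (34.7%) lay between genes. Both latter classes together are called distal here, and their median distance to the nearest gene end was 22.6 kb (quartiles 9.09 and 58.9 kb). The median fold was 5.43 at gene ends, 4.02 between genes and 3.63 inside genes. The median widths were 494, 420 and 389 bp. A fold of at least 10 was reached by 25.1% of gene-end peaks, 9.23% of peaks between genes and 4.99% of those inside genes. In absolute number, distal peaks of that strength (6845) were about as many as those at gene ends (7255). Among the 843 peaks of at least 5 kb, 601 were distal and 242 lay at gene ends, beside 99357 and 28890 of all 128247 peaks (77.5% and 22.5%). The distal share was thus not higher among these wide peaks. The curves of width and fold by place show the same order, with gene-end peaks shifted to higher folds over the whole range. With a window of 1000 bp 15.9% of peaks were near an end. With starts alone it was 15.5%, a setting that leaves out the far ends and also the genes beyond the 17491 with a listed start.

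**Figure D2:**
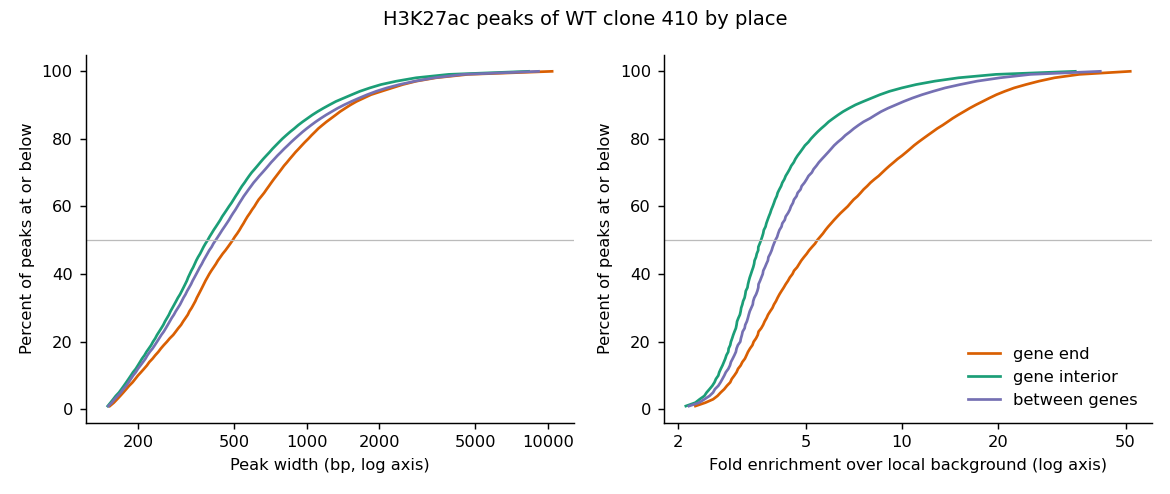
Cumulative curves of H3K27ac peak width (left, bp) and fold enrichment (right), both on log axes, for peaks at gene ends, inside genes and between genes; the grey line marks the median. Curves of width lie close together (medians 494, 389 and 420 bp) and those of fold lie apart (medians 5.43, 3.63 and 4.02).

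The strongest distal peaks reached folds close to those of gene ends. After those inside Ppp2r5c and near Armh1, Tmem131l and Rps6ka1, they were a peak 90176 bp from Tprg (fold 62.9), one inside Ddx60, a helicase of antiviral defence (62.8), the narrow peak inside Mical3 (60.3) and one 7124 bp from Atf1, a factor of the CREB family (58.6). A peak inside Pcmtd1 (57.1) and one 274999 bp from Mmp16, a membrane-bound metalloproteinase (54.1), completed the 10. All of them overlapped H3K4me3, with H3K4me3 folds from 17.3 near Armh1 to 121 near Atf1.

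Around transcription starts, H3K27ac formed a pair of shoulders with a trough between them. Starts and strands were given for 17491 protein-coding genes, and 9166 of them (52.4%, interval 51.7% to 53.1%) had a peak within 2500 bp of the outermost start. The share of starts covered by H3K27ac was highest 300 bp upstream (32.7%) and 200 bp downstream (38.0%), and it was 13.9% at the start itself. H3K4me3 covered 63.9% of starts at the start base and 63.7% at 500 bp downstream. At 2000 bp and more on either side, H3K27ac coverage was between 6.76% and 7.95%, close to its level at 5000 bp (6.93% upstream and 7.11% downstream). Of the starts with H3K27ac in the window, 69.8% had it within 1500 bp on both sides, 15.1% downstream alone and 11.7% upstream alone. The far end of a gene was covered less often: for 11079 genes of at least 10 kb, 60% had H3K27ac within 2500 bp of the start and 28.8% within 2500 bp of the far end. Starts with SUZ12 within 1000 bp had H3K27ac less often (33.4% of 3008, interval 31.8% to 35.2%) than other starts (56.3% of 14483, interval 55.5% to 57.1%), and the median of their strongest fold was 5.11 against 11.3. The trough at the start was present in both sets.

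**Figure D3:**
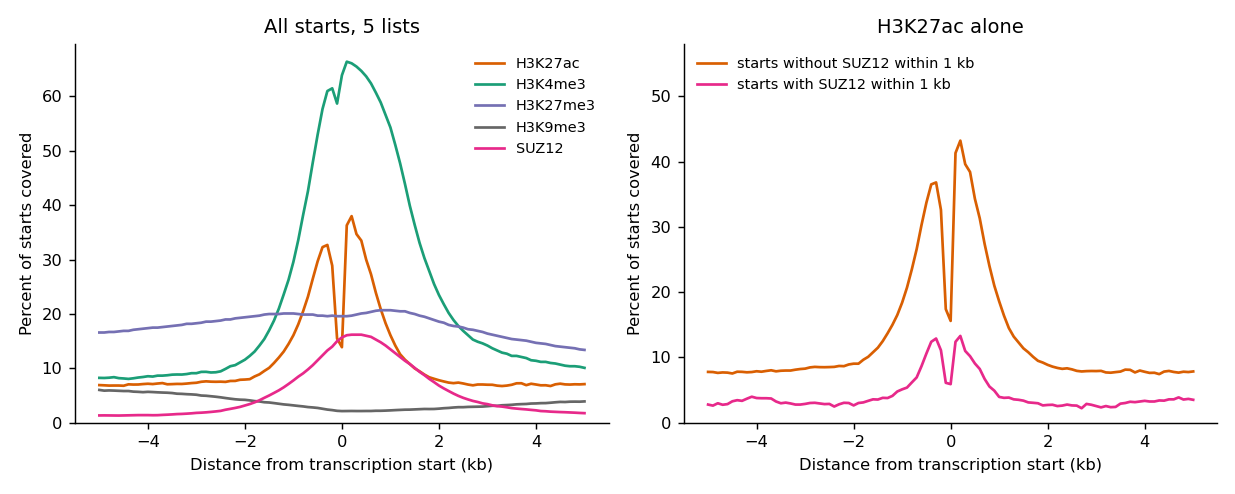
Share of 17491 protein-coding gene starts (y axis, percent) whose base at a given distance from the transcription start (x axis, kb, upstream negative) lay under a peak, for the 5 WT lists (left) and for H3K27ac alone at starts with and without SUZ12 within 1 kb (right). H3K27ac dips to 13.9% at the start between shoulders of 32.7% and 38.0%, while H3K4me3 covers 63.9% there.

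Promoters with H3K27ac were richer in CG dinucleotides. In the window from 250 bases before to 50 bases after the start, the median number of CG was 20 with H3K27ac (quartiles 13.0 and 28.0) and 4 without (quartiles 2 and 13.0). With promoters divided by CG into 4 groups of near equal size, from the fewest CG to the most, 11.9%, 43.5%, 76.8% and 77.4% had H3K27ac. Among promoters with H3K27ac, the count of CG and the strongest fold were only weakly related (Spearman's rank correlation 0.165, n = 9166 starts, as a description). In terms of short motifs on either strand, GGGCGG (the core of the Sp1 box, which itself holds CG) was in 46.3% of all promoters, 63.7% of those with H3K27ac and 27.2% of those without. CCGGAAG, a core of sites bound by Ets factors that also holds CG, was in 11.9%, 19.6% and 3.39%, and TATAAA, the TATA box, in 13.3%, 6.98% and 20.3%. CCAAT, bound by NF-Y, was in 39.2%, 40.4% and 37.9%. Histone gene promoters departed from this pattern, with TATAAA in 54.7%, CCAAT in 81.2% and a median of 11 CG over 64 promoters. A match gives letters in a window and does not show that a factor was bound.

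The other WT lists overlapped H3K27ac to very different extents. H3K4me3 overlapped 50.8% of H3K27ac peaks by at least 1 bp, H3K9me3 10.2%, H3K27me3 5.30% and SUZ12 1.70% (interval 1.63% to 1.78%). None of the 4 met 52303 peaks (40.8%), which had a median fold of 3.36, while H3K4me3 alone met 55356 peaks (43.2%) with a median fold of 5.40. In the other direction, 50.2% of H3K4me3 peaks, 23.8% of SUZ12 peaks, 16.1% of H3K9me3 regions and 9.15% of H3K27me3 regions held H3K27ac. Of the sequence in H3K4me3 peaks, 44.9% was acetylated, beside 3.21% of the span of the chromosomes. That share was 5.00% in SUZ12 peaks, 4.54% in H3K9me3 regions and 0.806% in H3K27me3 regions. The order of these shares is thus not that of the shares of H3K27ac peaks met. These lists differ in region width and number. For SUZ12 the chromatin preparation differs too, and its list is labelled as IDR peaks (irreproducible discovery rate, a filter on replicates), the others as reproducible peaks. The shares therefore cannot be ranked as affinities. Lists of the same clone from the rescue experiment (3 replicates) overlapped more peaks: 12.8% for H3K27me3, 19.5% for H3K9me3 and 55.8% for H3K4me3.

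The overlap with H3K4me3 rose steadily with H3K27ac strength. Peaks were ranked by fold and divided into 10 rank groups, each of about 12825 peaks, from 1 (weakest) to 10 (strongest). H3K4me3 overlapped 21.9% of rank group 1 and 97.5% of rank group 10, and the share near a gene end went from 12.4% to 52.0%. Among distal peaks alone the share with H3K4me3 went from 18.8% to 95.2%. The median peak width went from 283 to 1364 bp over the same rank groups, and its part in these overlaps was not tested. The strength of the H3K4me3 met was unlike in both places, however. Its median fold was 79.9 (quartiles 49.9 and 99.5) at gene-end H3K27ac peaks and 12.9 (quartiles 6.52 and 30.3) at distal ones. Even in rank group 10 it was 93.9 at gene ends and 29.1 at distal peaks.

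H3K27me3 and SUZ12 followed another course over the rank groups. H3K27me3 overlapped 4.69% of rank group 1, 6.55% of rank group 7 and 2.31% of rank group 10, and SUZ12 0.912%, 2.42% and 0.819%. At gene ends, SUZ12 overlapped 9.15% of rank group 6 and 1.30% of rank group 10. H3K9me3 rose from 7.87% in rank group 1 to 12% in rank group 8 and 11.8% in rank group 10. Among distal peaks alone it went from 8.49% to 21.2%, and at gene ends it stayed between 2.73% and 3.86%.

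**Figure D4:**
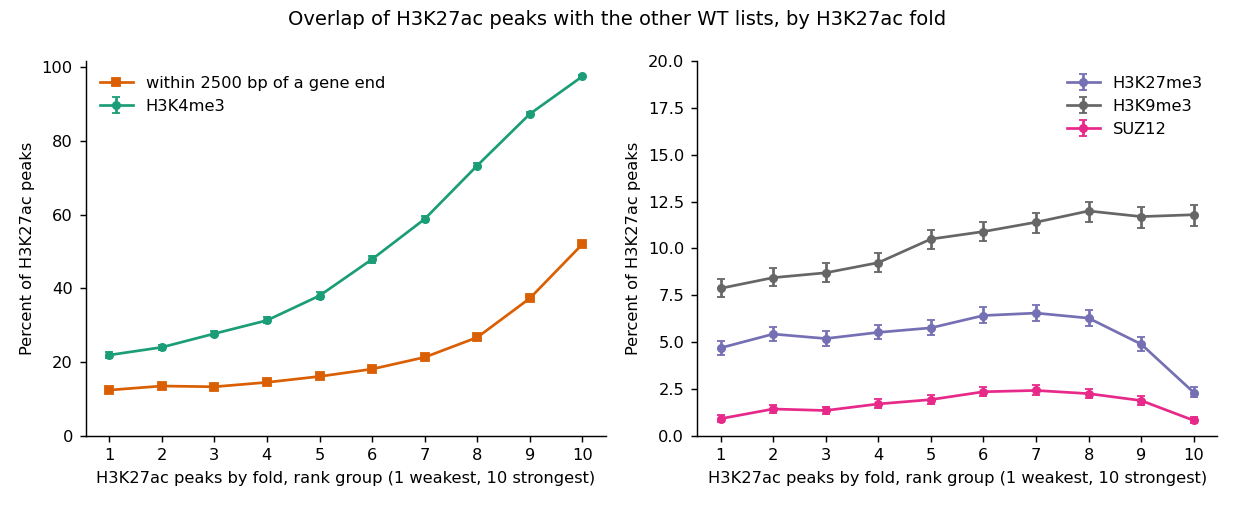
Share of H3K27ac peaks (y axis, percent) in each of 10 rank groups by fold (x axis, weakest to strongest) that overlapped H3K4me3 or lay near a gene end (left) and that overlapped H3K27me3, H3K9me3 or SUZ12 (right); bars on the overlaps are 95% Wilson intervals. H3K4me3 climbs from 21.9% to 97.5%, and SUZ12 is highest in rank group 7 (2.42%) and lowest in rank group 10 (0.819%), where its interval overlaps that of rank group 1.

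H3K27ac within H3K9me3 regions was mostly between genes. H3K9me3 overlapped 20% of peaks between genes, 6.04% inside genes and 3.22% at gene ends, and 77.6% of the 13131 overlapping peaks lay wholly inside the H3K9me3 region. Those that also met H3K4me3 and no other list (3970 peaks) were wide and strong, with a median width of 1019 bp and a median fold of 7.38, and 11.5% of them were near a gene end. Those with H3K9me3 alone (8944 peaks) had medians of 405 bp and 3.78. The 5 strongest peaks that overlapped H3K9me3 included those near Armh1, at Pigl, and inside Ddx60 and Pcmtd1. The other was one of 11.2 kb at Stk17b, a serine/threonine kinase (fold 54.3). H3K9me3 covered 48.4% of the Pigl peak and 28.4% of the Stk17b peak, and the whole of the others.

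At gene ends, H3K27ac peaks within H3K27me3 regions were weaker than those outside. Gene-end peaks in H3K27me3 had a median fold of 4.40, against 5.62 for those outside, whereas the medians of distal peaks were 3.76 and 3.78. The strongest peaks that overlapped H3K27me3 were near Txn1 (thioredoxin, fold 41.6), at Pik3r3 (a regulatory subunit of PI3 kinase, 40.3) and inside Cnpy1 (37.0). Next came those at Snx16 (a sorting nexin, 36.7) and inside Robo1 (an axon guidance receptor, 35.9). Only 6.12% of the Txn1 peak lay under H3K27me3, while the Pik3r3, Cnpy1, Snx16 and Robo1 peaks lay wholly inside it. The Pik3r3 and Robo1 peaks were 240 and 241 bp wide. In these pooled lists, acetylation and methylation of the same residue on different alleles, on the H3 copies of a nucleosome or in different cells cannot be told apart.

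H3K27ac at SUZ12 peaks was of middling strength and near gene ends. Of the 2185 H3K27ac peaks that met SUZ12, 1527 were near a gene end, and their median fold was 4.29, against 5.57 for gene-end peaks without SUZ12. Distal peaks went the other way, with medians of 4.07 with SUZ12 and 3.77 without. Almost all of the 2185 met H3K4me3 as well: 1296 met H3K4me3 and H3K27me3, 855 met H3K4me3 without a further mark, and 6 met SUZ12 alone. SUZ12 peaks that held H3K27ac had a median SUZ12 fold of 10.6, against 14.6 for those without, at near equal median widths (2184 and 2188 bp). With SUZ12 peaks divided by fold into 4 groups, from the weakest to the strongest, 27.7%, 29.0%, 20.4% and 18.0% held H3K27ac, and the acetylated share of their sequence fell from 12.2% to 2.16%. The centre of the H3K27ac peak lay nearer to the centre than to an edge of the SUZ12 peak in 51.2% of 2202 overlapping pairs, nearer to an edge but inside in 39.8% and outside it in 8.99%. The highest H3K27ac fold with SUZ12 was 28.0, at Dgat2 (an enzyme of triglyceride synthesis), a peak chosen after its value was seen.

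By gene, 12503 of 21883 protein-coding genes (57.1%, interval 56.5% to 57.8%) had an H3K27ac peak within 2500 bp of an end. Their median strongest fold was 10.2, and 2261 genes (10.3%) had a fold of at least 20. Of genes with H3K27ac, 97.0% also had H3K4me3 near an end, 28.5% H3K27me3 and 16.7% SUZ12. Of all 21883 genes, 16281 had H3K4me3 near an end, 7379 H3K27me3 and 4506 SUZ12. Conversely, 74.5% of genes with H3K4me3 and 6.66% of genes without it had H3K27ac. For H3K27me3 these shares were 48.3% and 61.6%, and for SUZ12 46.3% and 59.9%. The median strongest fold was 13.0 at 6806 genes with H3K27ac and H3K4me3 alone, and 5.76 at 1302 genes that had H3K27me3 and SUZ12 as well. Neighbouring genes can share a peak, so genes are not independent. The 26 gene lists used next were chosen with earlier results of these data known, and they are described by counts and medians beside those of all genes.

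Pluripotency regulators were acetylated throughout, although their folds spread widely. All 30 had a peak near an end, with a median strongest fold of 22.1, and 16 had a fold of at least 20. Their median acetylated length, counted over the gene and 2500 bp to either side, was 8856 bp against 921 bp for all genes. The highest folds were at Gdf3 (a TGF-beta family ligand, 51.4), L1td1 (43.3), Tdgf1 (40.8) and Dppa5a (an RNA-binding protein, 40.6). The core transcription factors followed with 39.9 at Sox2, 38.4 at Nanog and 28.5 at Pou5f1, which encodes OCT4. Between them stood Zfp42 (REX1, 38.8), Rif1 (37.3), Fbxo15 (36.5) and Sall4 (29.6). Folds from 20.7 to 28.1 were found at Utf1, Fgf4, Dppa2 and Klf2, among others, and from 10.1 to 19.2 at Zfp296, Tcl1, Dppa4, Tbx3, Mycn, Lin28a, Klf5, Klf4 and Tfcp2l1. The lowest were at Nr5a2 (8.85), Dppa3 (7.43), Nr0b1 (6.94), Prdm14 (5.57) and Esrrb (2.83).

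For Esrrb, an orphan nuclear receptor of naive pluripotency, the value near the annotated ends does not describe the gene. Its strongest peak inside the gene had a fold of 37.4, and 56.2 kb of the gene and its flanks were acetylated in 27 separate peaks, the highest such sum in the list. Tfcp2l1 was alike, with 10.1 near its ends, 19.7 inside and 30.8 kb acetylated. SUZ12 was near an end of 3 of the 30 genes and H3K27me3 near an end of 6, beside 4506 and 7379 of all 21883 genes.

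Genes of growth and chromatin were likewise almost all acetylated, beside 57.1% of all genes with a median strongest fold of 10.2. Ribosomal protein genes had H3K27ac at 82 of 83 members with a median fold of 26.2, led by Rpl19 (56.8), Rpl32 (51.0), Rpl3 (50.1) and Rpl4 (49.1), and the exception was Rpl32l. Histone genes had it at 63 of 69 with the highest median of any list, 31.3. H3c3 and H2bc3 shared 1 peak of 63.0, followed by H4c14 (53.1) and H2ac10 (48.7), the value of a peak shared with H3c8. All 21 genes of replication and histone recycling were acetylated (median 18.1), among them Mcm5 (34.4), Pole3 (32.2), Mcm2 (32.0), the gene mutated elsewhere in the series, and the histone chaperone Asf1a (29.5). So were all 25 genes of the acetylation machinery (median 18), with the bromodomain protein Brd2 (40.3), the acetyltransferase Kat2b (39.5), Brd8 (37.3) and the methyltransferase Kmt2d (36.1) leading. Of housekeeping and glycolysis genes, 25 of 26 had H3K27ac (median 25), led by the chaperone Hspa8 (43.9), the cyclophilin Ppia (38.3) and, among others, pyruvate kinase Pkm (30.9). Hprt had none in the gene or within 2500 bp of it, and no H3K4me3, H3K27me3, H3K9me3 or SUZ12 near an end.

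In signalling and cell cycle lists, single members were missing, beside a share of 57.1% and a median strongest fold of 10.2 for all genes. Self-renewal signalling had H3K27ac at 25 of 26 genes (median 11.6), with Dusp6, a phosphatase of ERK, highest at 32.6, then Pim1 (27.3), Spry2 (26.2) and Gsk3b (19.9), and none near an end of Jak1. Cell cycle and Myc genes had it at 21 of 22 (median 16.3), led by Trp53 (43.7), Ccnd1 (28.3), Cdkn1b (27.7) and Cdk4 (27), with none at the cell cycle inhibitor Cdkn2a. Of 9 DNA methylation and Tet genes, 6 had it, a share whose interval (35.4% to 87.9%) holds the 57.1% of all genes. They were Tet1 (20.9), Uhrf1 (19.2), Tet2 (15.5) and Dnmt3l (11), then Tdg and Dnmt3b, with none near an end of Dnmt1, Dnmt3a or Tet3. Dnmt1, the maintenance methyltransferase, nevertheless had 12.1 kb acetylated between its ends. Formative and primed genes had it at 16 of 18 (median 5.93), and the high values were those of Nodal signalling, at Lefty2 (47.5), Nodal (40.5) and Lefty1 (19.5), and of Otx2 (31.8). Dnmt3a and Cdh2 had none near an end, but 18.3 and 3.16 kb acetylated between their ends.

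Among lineage regulators, the shares with H3K27ac ran from 28.2% of Hox genes to 64.3% of trophoblast genes, beside 57.1% of all genes. The median folds of these 5 lists were from 3.04 to 4.30, beside 10.2. The intervals of the endoderm (18.5% to 61.4%) and trophoblast (38.8% to 83.7%) lists hold the share of all genes. Hox genes had H3K27ac at 11 of 39, with a median fold of 3.72, while SUZ12 was near an end of 38. Hoxb7 and Hoxb8 shared a peak of 4.85, and Hoxb2 had 3.84. Neural regulators had it at 10 of 33 (median 3.04), highest at Gbx2 (7.56), Neurod1 (4.62), Irx3 (4.33) and Pax7 (3.56). Mesoderm regulators had it at 8 of 24 (median 4.14), highest at Meox1 (11.2), Tcf15 (9.79), Nkx2-5 (4.39) and Wt1 (4.33). Endoderm regulators had it at 6 of 16 (median 3.29), highest at Foxa3 (7.56), Hhex (3.34), Foxa2 (3.30) and Hnf4a (3.28). No gene of the Hox, neural, mesoderm and endoderm lists reached a fold of 20. Trophoblast genes, at 9 of 14 with a median of 4.30, were led by Plet1 (17.5), Gata3 (5.67), Krt8 (4.40) and Tead4 (4.40), and had none at Elf5, Gata2, Ascl2, Krt7 and Esx1.

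Germline and imprinted genes had shares whose intervals hold the 57.1% of all genes. Germline genes had H3K27ac at 9 of 20 (45.0%, interval 25.8% to 65.8%, median fold 5.15), led by Sycp3 (13.7), Tex19.1 (10.9), Rpl10l (7.30) and Hormad1 (5.95). Imprinted genes had it at 14 of 25 (56.0%, interval 37.1% to 73.3%, median fold 5.43), with Ube3a (37.6), Peg3 (22.1), Zrsr1 (17.7) and Phlda2 (6.99) highest. The list of 2-cell-like genes had it at 3 of 23, and 2 of these, Eif1ax (15.6) and Eif1ad (14.9), were caught by the family name and are not genes of that state. The third was Usp17la (2.91). The other WT lists were sparse at these 23 genes too, with H3K4me3 near an end of 2, H3K27me3 of 3, H3K9me3 of 7 and SUZ12 of 0. The part of mappable sequence in these counts was not tested. Zinc finger genes named Zfp had it at 328 of 397 (median 11.6), with Zfp524 (57.6), Zfp868 (43.7), Zfp13 (40.5) and Zfp532 (40.1) highest.

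Markers of other cell types were counted beside the 30 of 30 pluripotency regulators. As the lists were chosen with earlier results of these data known, the counts are no independent check of the label of the cells. Fibroblast genes had H3K27ac at 3 of 16 (Vim 9.10, Thy1 5.68 and Tagln 2.32), blood genes at 3 of 15 (Klf1 22.7, Kit 9.23 and Spi1 5.88) and liver genes at 1 of 14 (Apoa1, 3.83). Muscle genes had it at 6 of 14 (interval 21.4% to 67.4%), with Mb (6.04), Des (5.10), Myog (3.45) and Tnnt3 (3.45) highest. Neuron effector genes had it at 7 of 15 (interval 24.8% to 69.9%), with Stmn2 (a microtubule regulator) far above the others at 60.9, then Syt1 (6.91), Gad1 (6.52) and Tubb3 (6.43). Olfactory receptors had it at 55 of 1106 (4.97%), highest at Olfr147 (21.7), Olfr543 (21.4), Olfr111 (16.8) and Olfr697 (14.7). Vomeronasal receptors had it at 19 of 353 (5.38%), highest at Vmn2r90 (47.3), Vmn2r85 (37.4), Vmn1r4 (25.5) and Vmn2r12 (14.6). The muscle and neuron intervals hold the 57.1% of all genes, so no difference from genes in general was detectable at these list sizes. A peak near a gene end can belong to a neighbour or to an enhancer, and which of these applied at single genes was not tested.

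**Figure D5:**
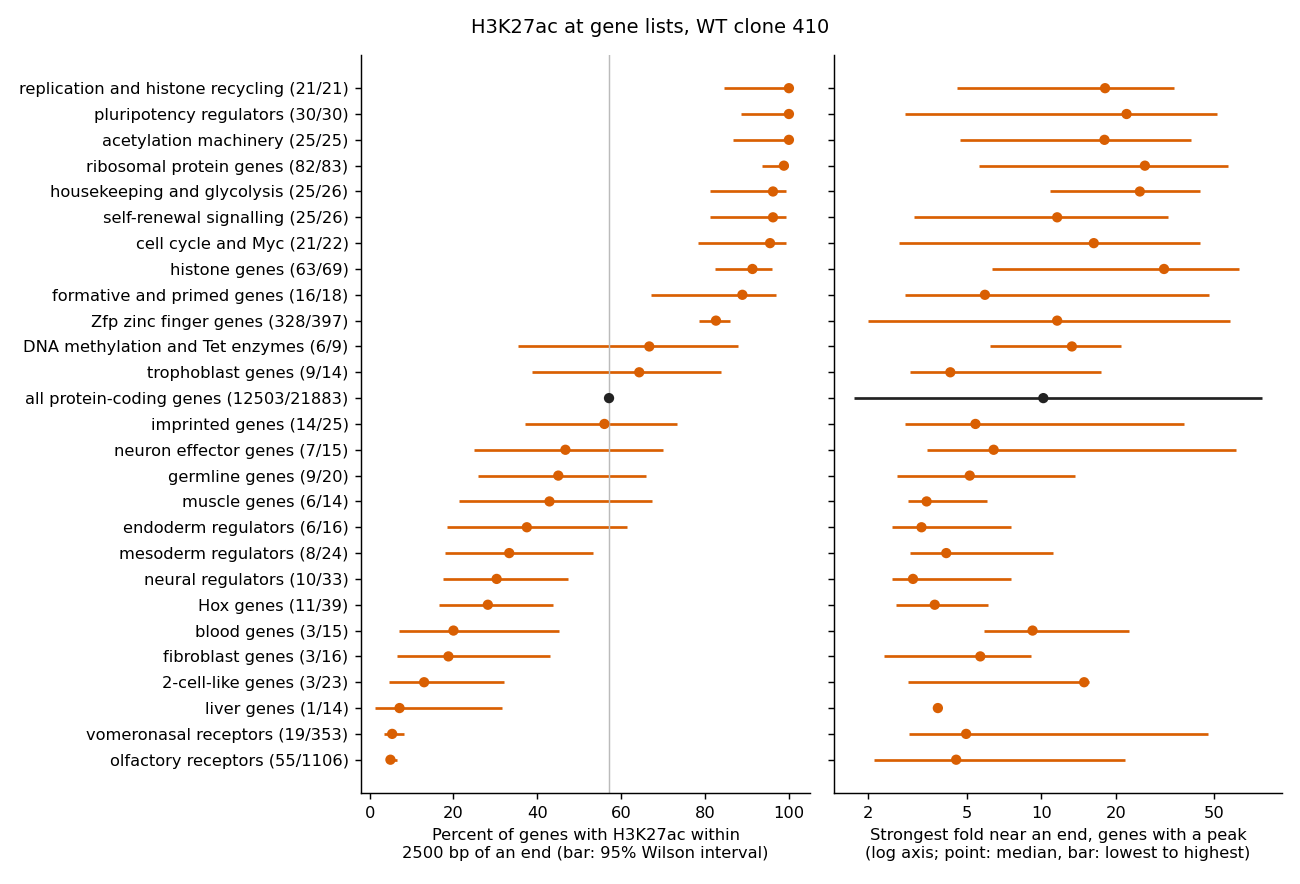
Share of each gene list with an H3K27ac peak within 2500 bp of a gene end (left, percent, bars are 95% Wilson intervals, counts in brackets) and the strongest fold near an end among genes with a peak (right, log axis, point the median, bar the lowest to the highest), with all protein-coding genes in black. Pluripotency, replication and acetylation genes stand at 100% with medians from 18 to 22.1, and Hox genes at 28.2% with a median of 3.72, beside 57.1% and 10.2 for all genes.

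Acetylated length picked out long genes filled with distal peaks. It was counted over the gene and 2500 bp to either side, and 14458 genes (66.1%) had at least 1 acetylated base. Etl4 had the most, 174 kb in 170 peaks, of which none was near a gene end and the strongest had a fold of 40.6. Msi2, an RNA-binding protein of stem cells, followed with 132 kb in 170 peaks, then Tns3 (a focal adhesion protein) with 109 kb in 90 peaks and Pitpnc1 (a phosphatidylinositol transfer protein) with 96.4 kb in 83 peaks. Arhgap26 (a GTPase-activating protein) had 82.4 kb, Pde4d (a cAMP phosphodiesterase) 76.5 kb and Macf1 (a cytoskeletal linker) 76.2 kb. Magi1, a scaffold of cell junctions, had 73.0 kb, Sulf1, a heparan sulfate endosulfatase, 70.8 kb and Dst, a linker of the cytoskeleton, 70.5 kb.

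These 10 genes differed in how densely they were acetylated. H3K27ac covered 45.8% of the window of Tns3, 40.7% of that of Sulf1 and 34.4% of that of Msi2, but 5.85% of that of Pde4d, a gene of 1302 kb. The strongest fold of Magi1 was 10.6, against 40.9 in Sulf1. Neither Etl4 nor Pde4d had a peak near an end. Length of the gene itself moved with this measure: the 1355 genes with at least 10 kb acetylated had a median length of 88.7 kb, against 17.2 kb for all genes, and Spearman's rank correlation across the 21883 genes was 0.458, as a description. Of 556 genes of at least 300 kb, 102 had under 1 kb acetylated. Among genes shorter than 100 kb, chosen after their values were seen, the most acetylated sequence was in Manba (a lysosomal mannosidase, 54.5 kb), Bicral (52.6 kb), Tet2 (47.5 kb), Etv5 (an ERK-responsive Ets factor, 46.3 kb, 73.2% of its window) and Ccnd3 (cyclin D3, 46.2 kb).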

How the data were processed

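H3K27ac ChIP–seq of WT clone 410 was used as 1 list pooled by the authors from 2 replicates, with 7 further WT lists (H3K4me3, H3K27me3 and H3K9me3 from the original and rescue experiments, and SUZ12). Per the submitters' processing notes, MACS2 2.1.0, Picard 2.20.7, BWA 0.7.15 and cutadapt 2.5 were used with build mm10. What remains not given in the sources used here is the setting of the peak caller and which caller made the broad H3K27me3 and H3K9me3 regions. The authors deposited each narrow peak with a ratio (fold enrichment of the ChIP over its local background) and a -log10 q-value, both used as they stood. Broad regions were used by position only.

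Peaks were intersected with RefSeq genes and promoters of GRCm38.p6, the assembly behind mm10, in Python 3.11.15 with numpy 2.4.6, pandas 2.3.3 and scipy 1.17.1, and the interval functions were tested on simulated data. An overlap meant at least 1 bp, and a gene end the outermost annotated base with 2500 bp to either side. Positions count from 1. The annotation gave no strand, and starts came from the promoter table, which holds 17491 of the 21883 genes. No test was made, since there was 1 pooled list. SUZ12 lists of 2 mutant clones were not used here.

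Named were the 10 peaks of highest fold, the 10 widest and the 10 strongest distal peaks, the 5 strongest in H3K27me3 and in H3K9me3, the 10 genes with most acetylated length, the pluripotency regulators, and up to 4 members of each other list by fold. Some genes that this rule names are not reported here. The peaks and lists were chosen with earlier results of these data known. Alternatives were other windows, starts alone, a stricter overlap, the rescue lists, the stronger 50% of peaks, merging within 200 bp, ranking by q-value and gene bodies alone.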

Additional observations from a re-analysis of the deposited data

How the results depend on the processing

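The values rest on 1 pooled list of unknown depth and unknown caller settings. No paired analysis was possible because the replicates were pooled in the deposited lists and no test was made. Of 34 alternative values, 31 moved beyond the counting interval (or, where none exists, the last digit given) and 3 did not. Except where fewer or merged peaks, another window or a stricter overlap define the change, the cause was not tested. The share of peaks near a gene end was 15.9% with windows of 1000 bp, 31.3% with 5000 bp, 15.5% at the starts of the 17491 genes with a listed start, 31.1% for the stronger 50% of peaks, 21.6% after merging within 200 bp and, in an alternative chosen after seeing the data, 31.6% with ends of all RefSeq genes. The share of genes with H3K27ac was 52.0%, 62.9%, 52.4% and 51.0% under the first 4 of these. With 50% of the peak covered, overlap was 43.6% for H3K4me3, 4.88% for H3K27me3, 9.05% for H3K9me3 and 1.56% for SUZ12. With the rescue lists it was 55.8%, 12.8% and 19.5% for the 3 marks. For the stronger 50% of peaks it was 73.0% for H3K4me3, 11.5% for H3K9me3 and 1.94% for SUZ12, and after merging 49.2%, 5.86%, 10.6% and 1.85% in the order H3K4me3, H3K27me3, H3K9me3 and SUZ12. The median width was 667 bp for the stronger 50% and 467 bp after merging. The median fold at gene ends divided by that of distal peaks, 1.44, was 1.78 with 1000 bp, 1.25 with 5000 bp, 1.66 at starts alone and 1.41 for the stronger 50%. Ranking by -log10 q kept 5 of the 10 strongest peaks. Gene bodies alone kept all 10 genes of most acetylated length.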

Other observations

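Genes that do not code for protein also carried H3K27ac near their ends. Of 408 annotated tRNA genes, 257 (63.0%, interval 58.2% to 67.5%) had a peak within 2500 bp, and among those with no protein-coding end within that distance the share was 56.3% (169 genes). Long noncoding RNA genes had it at 4860 of 12727 (38.2%, and 30.1% of those so set apart), snoRNA genes at 333 of 1340 (24.9%, and 12.7%), snRNA genes at 203 of 1004 (20.2%, and 15.9%) and pseudogenes at 1435 of 9944 (14.4%, and 12.4%). Ends of long noncoding RNA genes accounted for 8268 distal peaks, 8.32% of those called distal from protein-coding genes. tRNA genes lie in clusters and several can share a peak.

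Chromosomes differed in H3K27ac density. All together held 47.1 peaks per Mb. Chromosome 11 held 79.6, with 13.2 protein-coding genes per Mb, and chromosome 3, the lowest autosome, 39.3. Chromosome X held 14.4 peaks per Mb and had 0.984% of its span acetylated, against 3.21% in all, while its gene density (5.65 per Mb) was close to that of chromosome 18 (5.63 per Mb, with 44.0 peaks per Mb). The median fold of the 2454 peaks on X was 4.72, above the 3.98 of the whole list. Chromosome Y held 27 peaks, and 55.6% of them met H3K9me3. The line is male, with 1 X chromosome, and the part of copy number or of mappable sequence in these densities was not tested.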
